A study of Rattus norvegicus with 15 samples.

Results

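The comparison of duodenum with jejunum rested on 6 of the series' 15 samples, the 3 duodenal and the 3 jejunal ones, chosen by their titles. All were suspensions of mucosal cells from untreated male Sprague Dawley rats, whose age the labels did not give. Bowel segments had been everted, digested for a short time with pronase and elutriated, so each sample held the mixture of cells that this released. The other 9 samples, 3 each from stomach, ileum and colon, were prepared by the same route and entered the fit to help estimate the spread. Whether separate animals gave the isolations of a segment was not stated, and the p-values below measure only the spread between these isolations. What the comparison asked was which transcripts differ between these neighbouring segments of the small bowel.

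The duodenum is where gastric acid is neutralised, where bile and pancreatic juice enter, and where iron and calcium are taken up through dedicated transporters. The jejunum that follows is the main site at which digested fat and sugar are absorbed and where fat is packed into lipoproteins. Hormone-producing cells are spread along both, and the mix of hormones changes with distance from the stomach.

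Each duodenal sample shared a microarray with a jejunal one, labelled with the opposite dye. Duodenum 1 (Cy3) lay with jejunum 3 (Cy5), duodenum 2 (Cy5) with jejunum 1 (Cy3), and duodenum 3 (Cy5) with jejunum 2 (Cy3). A level below is the log2 processed intensity of a probe minus the 75th percentile of its sample, so 0 marks that percentile. Levels are comparable between samples for 1 probe, not between probes. Differences are duodenum minus jejunum on the log2 scale with the standard error (SE) of the limma fit, and a gene was called at a Benjamini-Hochberg adjusted p under 0.05. Median intensities ran from 266 to 409 in the duodenal samples and from 259 to 411 in the jejunal ones.

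The array of duodenum 2 and jejunum 1 stood apart from the other arrays. On it, 64.6% of the duodenal and 52.2% of the jejunal probes were well above background, whereas the other 4 samples ranged from 81.2% to 92.4%. Within-array differences had an SD over genes of 0.94 on that array, against 0.47 for duodenum 1 with jejunum 3 and 0.39 for duodenum 3 with jejunum 2. Across genes, which are not independent replicates, the differences on the array of duodenum 1 and jejunum 3 had a Pearson correlation of 0.35 with those of duodenum 2 and jejunum 1, and of 0.09 with those of duodenum 3 and jejunum 2. The remaining pair of arrays correlated at 0.03. Spearman coefficients for these pairs, in the same order, were 0.36, -0.15 and -0.08, so the weak pairs had no settled sign. For several gene lists the distance lay with jejunum 1. Its mean level over 34 cell proliferation genes was -1.09, against 0.42 and 0.31 in jejunum 2 and 3 and 0.06 to 0.67 in the duodenal samples. Over 29 genes of lipid absorption its mean level was 3.61, against 2.16 and 2.53 in jejunum 2 and 3. Values without this array are therefore given beside the results, and the part played by the cell mixture of jejunum 1 was not tested.

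The labelled tissue was checked against markers. Epcam, the epithelial adhesion molecule, ranged from 5.56 to 6.22 in the duodenum and from 5.74 to 6.42 in the jejunum, and Cdx2, the intestinal homeobox factor, from 4.32 to 4.998 and from 4.58 to 5.06 in the same order. Vil1, the villin of microvilli, ranged from 3.44 to 4.12 in the duodenum and from 4.01 to 5.09 in the jejunum. Fibroblast genes had mean levels of -2.78 to -2.01 in the duodenum and -2.48 to -1.88 in the jejunum, and T cell genes -1.50 to -1.40 and -1.09 to -0.54. Cd3e, which defines T cells, was well above background in 1 duodenal and 2 jejunal samples. Thus Epcam, Cdx2, Vil1 and the fibroblast mean overlapped between the segments. The T cell mean was lower in each duodenal sample than in any jejunal one. Of the other epithelial markers chosen, Cdh1 and Cdh17 overlapped as well. Si, a sucrase, did not, at 3.13 to 4.14 in the duodenum and 4.29 to 6.76 in the jejunum. Nor did Fabp1, a fatty acid binding protein, at 6.43 to 6.72 and 6.93 to 8.65, with the jejunal samples all saturated. In such bulk samples, fewer cells of a type and less RNA per cell cannot be told apart.

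Of 33532 genes tested, 175 (0.522%) were called, 83 (0.248%) higher and 92 (0.274%) lower in the duodenum. At an unadjusted p under 0.05 there were 2859. The median difference over all genes was -0.02. All 171 called genes with a value on the 3 arrays had the same sign on each of them. For 174 of the 175 the duodenal and jejunal samples did not overlap. The calls were made from these same samples, so neither count is a separate check of them. Among the 33532 tested, 10.53% had a positive difference on each array and 13.53% a negative one. Called differences began at 1.75-fold, and 54 genes differed by over 4-fold, 26 of them higher and 28 lower in the duodenum. Without the array of duodenum 2 and jejunum 1, 80 genes were called higher and 46 lower, and 80 of the 175 were still called. The fit without the array of duodenum 1 and jejunum 3 called 7 genes higher and 3 lower. Every duodenal sample left was then Cy5 and every jejunal one Cy3, so segment and dye were separated only through stomach and colon samples. Whether calls were lost there through this dye balance was not tested. Of 63 called genes examined by name, 56 lost the call in that fit, 17 without the array of duodenum 2 and jejunum 1 and 0 without that of duodenum 3 and jejunum 2, and none changed sign in these 3 fits. Those called in all 3 fits included Gkn1, Tff2, Gkn2, Gsta1, Sult1c2 and Nts.

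**Figure D1:**
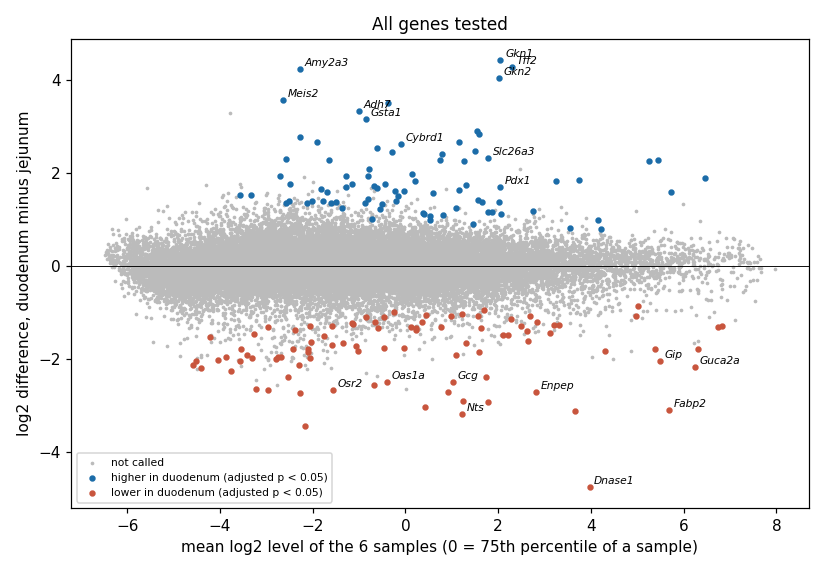
Log2 difference, duodenum minus jejunum (vertical axis), against the mean log2 level of the 6 samples (horizontal axis) for each gene tested, with called genes in colour. Gkn1, Tff2 and Gkn2 stand at the top and Dnase1 at the bottom, and called genes lie at low as well as high levels.

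The 6 genes that mark the 2 segments fell into 3 higher and 3 lower in the duodenum. Gkn1, the gastrokine made by the surface cells of the stomach, stood at 4.17, 4.64 and 3.81 in duodenum 1, 2 and 3, against 0.59, -0.47 and -0.44 in jejunum 1, 2 and 3. It was 21.7-fold higher in the duodenum (log2 difference 4.44 ± 0.27, adjusted p = 3.54e-07). Every duodenal sample lay well above every jejunal one, and the 3 arrays gave 4.62, 4.04 and 4.29. Tff2, a trefoil peptide of gastric neck cells and of the duodenal Brunner glands, had levels of 4.56, 4.47 and 4.22 in the duodenum and 0.70, -0.07 and -0.09 in the jejunum, a 19.5-fold difference (4.29 ± 0.29, adjusted p = 6.02e-07). Gsta1, a glutathione transferase, had levels of 0.73, 0.89 and 0.53 in the duodenum and -2.23, -2.37 and -2.69 in the jejunum (9.0-fold, 3.17 ± 0.22, adjusted p = 8.2e-07). Its spread within each segment was a small part of the gap between them.

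In the opposite direction, Dnase1, the secreted endonuclease that degrades DNA in the gut lumen, had levels of 1.71, 1.3 and 1.75 in the duodenum, against 6.82, 5.79 and 6.46 in the jejunum. At 26.7-fold lower in the duodenum (-4.74 ± 0.46, adjusted p = 3.48e-05), it had the largest difference of any called gene with a current symbol. Nts, which encodes neurotensin, a peptide hormone of the lower small bowel, was at -0.59, -0.47 and 0.01 in the duodenum and at 3.18, 2.3 and 2.95 in the jejunum (9.05-fold lower, -3.18 ± 0.24, adjusted p = 1.15e-06). Fabp2, the intestinal fatty acid binding protein, was at 4.06, 4.25 and 4.03 in the duodenum and at 8.39, 6.56 and 6.87 in the jejunum, where the highest sample was saturated on the scanner (8.55-fold lower, -3.10 ± 0.32, adjusted p = 5.73e-05). The duodenal samples of Fabp2 lay close together and jejunum 1 stood above the other jejunal samples. All 6 genes were still called without the array of duodenum 2 and jejunum 1, with differences of 4.45 for Gkn1, 4.47 for Tff2, 3.16 for Gsta1, -4.39 for Dnase1, -2.92 for Nts and -2.67 for Fabp2. Dnase1 (-4.59, adjusted p = 0.0955) and Fabp2 (-3.24, 0.0812) lost their calls without the array of duodenum 1 and jejunum 3, and the other 4 kept theirs.

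The sequence just before a transcription start is shown for Gkn1 and Gkn2, which lie together on chromosome 4 and were both higher in the duodenum. It is also shown for Fabp2 and Dnase1, which were lower there. The sequences are RefSeq's on the GRCr8 build, 250 bases each, read on the strand of the gene. Both strands were searched for TATAAA, the letters of a TATA box, for AGATAA, which GATA factors bind, for GTTAAT, part of an HNF1 site, and for CAAAGT, part of an HNF4 site. Capitals mark the matches, none of which overlapped. The same search found no match before the starts of Nts and Pdx1, whose sequences are not printed.
Gkn1 (chr4:121352706-121352955, minus strand): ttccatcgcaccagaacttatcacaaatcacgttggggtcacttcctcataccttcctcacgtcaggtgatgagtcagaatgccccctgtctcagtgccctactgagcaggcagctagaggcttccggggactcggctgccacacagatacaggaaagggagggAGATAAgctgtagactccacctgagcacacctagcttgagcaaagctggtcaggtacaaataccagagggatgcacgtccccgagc
Gkn2 (chr4:121375344-121375593, plus strand): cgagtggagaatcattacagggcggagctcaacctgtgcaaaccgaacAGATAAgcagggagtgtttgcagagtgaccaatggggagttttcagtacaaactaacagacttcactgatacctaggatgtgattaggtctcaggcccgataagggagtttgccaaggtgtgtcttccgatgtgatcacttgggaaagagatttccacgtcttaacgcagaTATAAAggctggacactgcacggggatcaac
Fabp2 (chr2:213724379-213724628, plus strand): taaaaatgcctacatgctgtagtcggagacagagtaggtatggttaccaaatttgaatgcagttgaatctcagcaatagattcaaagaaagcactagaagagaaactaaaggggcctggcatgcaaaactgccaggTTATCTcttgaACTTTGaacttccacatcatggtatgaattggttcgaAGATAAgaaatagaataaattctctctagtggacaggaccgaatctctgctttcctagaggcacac
Dnase1 (chr10:12008245-12008494, minus strand): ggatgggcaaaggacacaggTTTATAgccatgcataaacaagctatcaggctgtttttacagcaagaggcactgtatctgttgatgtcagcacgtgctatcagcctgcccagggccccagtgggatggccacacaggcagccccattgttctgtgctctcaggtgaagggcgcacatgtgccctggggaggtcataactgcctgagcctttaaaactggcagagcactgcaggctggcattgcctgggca
Counted from the start, AGATAA began at -86 in Gkn1, at -202 in Gkn2 and at -66 in Fabp2, and its reverse complement lay at -114 in Fabp2. TATAAA began at -31 in Gkn2 and its reverse complement lay at -230 in Dnase1. The reverse complement of CAAAGT lay at -103 in Fabp2. Such letters are common: in 33469 rat promoter windows of 250 bases before and 50 after a start, AGATAA was found in 11.58%, TATAAA in 14.22%, CAAAGT in 14.8% and GTTAAT in 7.45%. In the GRCr8 annotation, the interval of Gkn1 (121347417 to 121352705) lies within that of Gkn2 (121335642 to 121381680), on the opposite strand. The printed Gkn2 sequence ends at 121375593, inside the Gkn2 interval, so the start counted from is not that interval's first base.

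Of the 41 lists examined, genes of the gastric surface and mucous neck cells had the highest share of calls in the duodenal direction. Of 12 tested, 6 were higher and 0 lower in the duodenum, with a median difference of 1.23, against -0.02 over all genes. For this and each list below, the shares called over all genes were 0.248% higher and 0.274% lower. Gkn2, the partner gastrokine, was at 4.10, 4.01 and 3.79 in the duodenum and at 0.93, -0.38 and -0.35 in the jejunum (16.7-fold, 4.06 ± 0.32, adjusted p = 1.59e-06). Tff1, the trefoil peptide of the gastric surface, was at 2.75, 3.73 and 2.42 in the duodenum and at 1.61, -1.13 and -0.12 in the jejunum (7.5-fold, 2.91 ± 0.48, adjusted p = 0.00792). The groups of Tff1 did not overlap, but its spread was wider than that of Gkn2. Muc5ac, the gel-forming mucin of the gastric surface, was at 0.23, 0.36 and -0.01 in the duodenum and at -1.44, -1.48 and -1.66 in the jejunum (3.34-fold, 1.74 ± 0.24, adjusted p = 0.00131). Anxa10, an annexin of gastric epithelium, was 6.40-fold higher (2.68 ± 0.30, adjusted p = 0.00012).

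The remaining 6 genes of that list were not called. Muc6, the mucin of neck and Brunner gland cells, ranged from -2.01 to -1.36 in the duodenum and from -1.88 to 0.05 in the jejunum, where jejunum 1 was highest. Cldn18 ranged from -2.32 to -2.04 and from -2.75 to -0.40 in the same order. Neither of them separated the segments. Genes of the acid-secreting and enzyme-secreting glands of the stomach were not called: 0 of 13 parietal cell genes, with a median of -0.13, and 0 of 7 chief cell genes, with a median of -0.14. Since 0.522% of all genes were called, lists this short would mostly hold 0 calls in any case. Atp4a, the proton pump subunit that defines parietal cells, was well above background in 1 duodenal and 2 jejunal samples. Of 6 genes taken as a Brunner gland list, Tff2 was the single call, and Egf and Pgc were not called. The gastric count was again 6 without the array of duodenum 2 and jejunum 1. Leaving out duodenum 1 or jejunum 3 ended the calls of Tff1 and Muc5ac (highest adjusted p 0.238 and 0.125), and leaving out both together also that of Anxa10 (2.65, adjusted p = 0.201).

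Pancreatic digestive enzymes gave 2 calls among 22 genes, both higher in the duodenum, with a median of 0.37. Amy2a3, a pancreatic amylase, was at -0.39, 0.22 and -0.81 in the duodenum and at -4.41, -2.31 and -5.99 in the jejunum (19.1-fold, 4.25 ± 0.53, adjusted p = 0.000535). It was well above background in all 3 duodenal samples and 1 jejunal sample, so the fold is a fitted value on dim jejunal signals. Cpb1, a carboxypeptidase of pancreatic juice, was at -0.94, -0.62 and -1.09 in the duodenum and at -4.08, -2.47 and -4.43 in the jejunum (6.93-fold, 2.79 ± 0.42, adjusted p = 0.00336). For both genes jejunum 2 was the highest jejunal sample. Prss1, the trypsinogen, differed by 1.0 ± 0.31 (adjusted p = 0.24), Pnlip, the pancreatic lipase, by 0.42 ± 0.30 (0.816) and Cel, the bile-salt-stimulated lipase, by -0.51 ± 0.30 (0.714). The summed level of the whole list, which its brightest members dominate, ranged from 15.9 to 16.9 in the duodenum and from 13.6 to 16.3 in the jejunum. Its mean log2 level did not overlap, at -1.58 to -1.30 in the duodenum and -2.32 to -1.79 in the jejunum. At an unadjusted p under 0.05, 6 of the 22 were higher and 0 lower, against 4.35% and 4.17% of all genes. Whether pancreatic cells were carried over from tissue attached to the duodenum was not tested. Leaving out jejunum 3 ended both calls, with differences of 3.40 for Amy2a3 (10.6-fold, adjusted p = 0.109) and 2.09 for Cpb1 (4.24-fold, 0.291), and leaving out duodenum 1 ended that of Cpb1. Without jejunum 2 the differences were 5.04 and 3.40. Amy2a3 was 11.7-fold higher and still called without the array of duodenum 2 and jejunum 1.

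**Figure D2:**
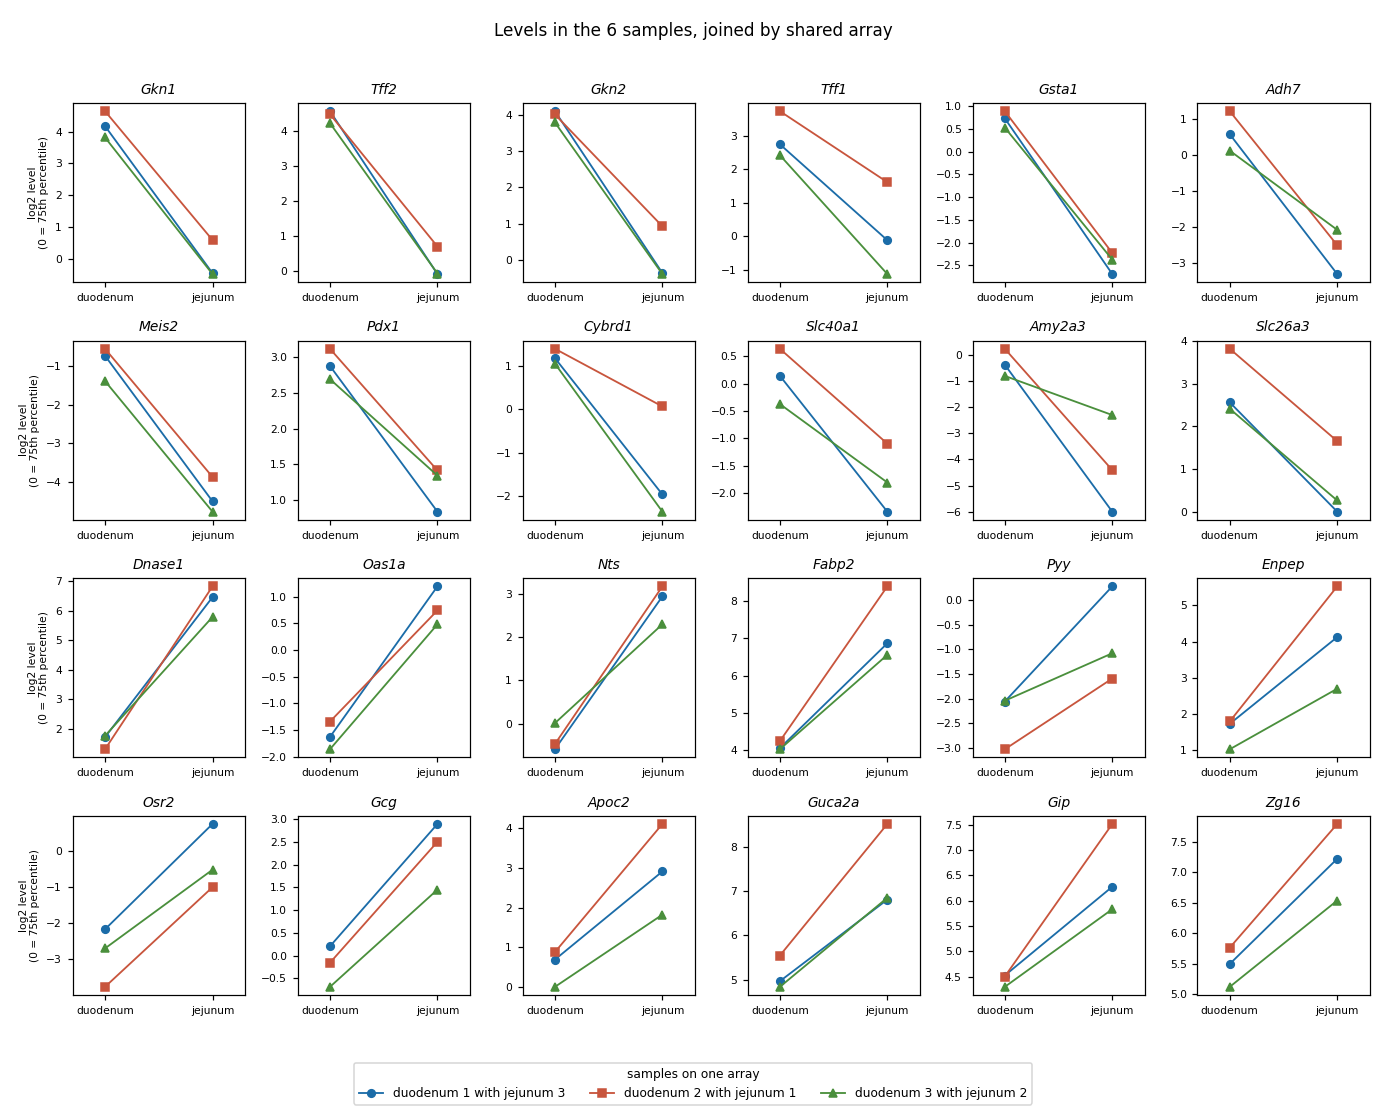
Log2 levels of 24 genes (vertical axes, 0 at the 75th percentile of a sample) in the duodenal samples on the left and the jejunal samples on the right of each panel, with lines joining the samples of 1 array. The 12 genes in the upper panels decline to the right on every array and the 12 in the lower panels climb on every array.

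Among 37 transcription factors of regional identity, 2 were higher and 3 lower in the duodenum, with a median of 0.11. All genes gave 0.248% and 0.274% in the same order. Pdx1, the homeobox factor of duodenum and pancreas, was at 2.88, 3.12 and 2.69 in the duodenum and at 1.41, 1.34 and 0.84 in the jejunum (3.26-fold, 1.71 ± 0.23, adjusted p = 0.00131). Meis2, another homeobox factor, was at -0.73, -0.54 and -1.38 in the duodenum and at -3.88, -4.78 and -4.51 in the jejunum, where it was not well above background in any sample. Its difference is a bound, at least 8.56-fold higher in the duodenum (adjusted p = 0.000152).

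Among the lower factors, Osr2, a zinc finger factor, was at -2.17, -3.77 and -2.70 in the duodenum and at -0.99, -0.51 and 0.77 in the jejunum (6.34-fold lower, -2.67 ± 0.33, adjusted p = 0.000414), with 2 of its 3 duodenal samples well above background. Hnf4a, a nuclear receptor that drives enterocyte genes, was 2.52-fold lower (-1.34 ± 0.26, adjusted p = 0.0281). The jejunal values of Hnf4a were 1.79, 0.51 and 0.52, so jejunum 1 stood above the other jejunal samples, and without its array the call was lost (-0.88, adjusted p = 0.103). It was also lost without duodenum 1, duodenum 2 or jejunum 3 (highest adjusted p 0.456). A second Hnf4a probe differed by -0.08, -0.48 and 0.13 on the 3 arrays, and the mean of both probes was not called (-0.74 ± 0.22, adjusted p = 0.223). Gata4 and Cdx2 were not called and overlapped between segments, Gata4 at 2.43 to 2.71 in the duodenum and 2.31 to 2.71 in the jejunum. Of 25 Hox genes 0 were called, with 1 at an unadjusted p under 0.05 (4%, against 8.53% of all genes). Pdx1 lost its call without duodenum 1 or jejunum 3 (highest adjusted p 0.196), and Osr2 without jejunum 3 (-1.97, adjusted p = 0.109). Meis2 was called without any 1 sample but not without the array of duodenum 1 and jejunum 3 (adjusted p = 0.239).

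Iron uptake genes gave 3 calls among 13, all higher in the duodenum (0.248% of all genes), with a median of 0.26. Cybrd1, the ferric reductase of the brush border, was at 1.18, 1.40 and 1.06 in the duodenum and at 0.07, -2.35 and -1.95 in the jejunum (6.18-fold, 2.63 ± 0.41, adjusted p = 0.00455). Slc40a1, the iron exporter ferroportin, was at 0.14, 0.63 and -0.37 in the duodenum and at -1.10, -1.80 and -2.34 in the jejunum (3.84-fold, 1.94 ± 0.30, adjusted p = 0.00378). Tfrc, the transferrin receptor, was 1.78-fold higher (0.83 ± 0.18, adjusted p = 0.0417). Cybrd1 was nearer the duodenal level in jejunum 1 than in the other jejunal samples, and without its array the difference was 3.27. It was 1.93 without the array of duodenum 1 and jejunum 3. Slc11a2, the apical ferrous iron transporter, was not called and overlapped, at 0.43 to 1.21 in the duodenum and 0.18 to 0.80 in the jejunum. Heph, the ferroxidase that works with ferroportin, and Slc46a1, a folate and haem carrier, overlapped as well.

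Calcium uptake genes gave 2 calls among 10, both higher in the duodenum (0.248% of all genes), with a median of 0.42. S100g, the calcium-carrying calbindin of enterocytes, was at 7.14, 7.62 and 7.43 in the duodenum and at 6.37, 5.08 and 5.10 in the jejunum (3.76-fold, 1.91 ± 0.25, adjusted p = 0.00089), with 2 duodenal samples saturated. Trpv6, the apical calcium channel, was at 1.86, 2.03 and 1.79 in the duodenum and at 1.39, 0.84 and 0.85 in the jejunum (1.88-fold, 0.91 ± 0.19, adjusted p = 0.0329). In both, jejunum 1 was the jejunal sample nearest to the duodenum. Atp2b1, the basolateral calcium pump, differed by 1.07 ± 0.30 (adjusted p = 0.159) and Vdr, the vitamin D receptor, by 0.59 ± 0.31 (0.641). Slc19a2, a thiamine carrier, was the single call among 13 genes of vitamin and retinoid uptake (2.39-fold higher, adjusted p = 0.0205), and it was lost without the array of duodenum 2 and jejunum 1 (adjusted p = 0.132), as was Tfrc (0.199). Both were also lost without duodenum 1, duodenum 2, jejunum 1 or jejunum 3 (highest adjusted p 0.513 for Slc19a2 and 0.871 for Tfrc). A second Slc19a2 probe was lower in the duodenum on all 3 arrays, by -0.71, -1.03 and -0.26, and the mean of both probes was not called (0.30 ± 0.23, adjusted p = 0.838). Leaving out jejunum 3 ended the calls of Cybrd1, Slc40a1, S100g and Trpv6, with highest adjusted p-values over single omissions of 0.313, 0.335, 0.13 and 0.441. Duodenum 1 had the same effect for all but S100g, and duodenum 2 for Trpv6.

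Lipid absorption genes had a median of -0.88 over 29 genes, with 3 called lower and 0 higher, and 22 of the 29 were lower in the duodenum on all 3 arrays, as were 4536 of all 33532 genes (13.53%). Besides Fabp2, the calls were Apoc2, an apolipoprotein that activates lipoprotein lipase, at 0.69, 0.88 and 0.00 in the duodenum and 4.11, 1.83 and 2.92 in the jejunum (5.19-fold lower, -2.38 ± 0.43, adjusted p = 0.0161), and Cd36, the fatty acid translocase (2.48-fold lower, -1.31 ± 0.22, adjusted p = 0.00947). The chylomicron genes Apoa1 (-1.82 ± 0.49, adjusted p = 0.132), Apoa4 (-1.60 ± 0.55, 0.344), Apob (-1.28 ± 0.45, 0.362) and Mttp, which loads lipid onto apolipoprotein B (-0.88 ± 0.44, 0.614), did not pass the test. Their jejunal spread was wide. Apoa1 was at 3.81, 4.35 and 3.58 in the duodenum and at 7.59, 4.80 and 5.03 in the jejunum. The list's median was -1.81 on the array of jejunum 1, against -0.59 and -0.53 on the others, and -0.48 in the fit without that array, where Fabp2 was the single call left. Apoc2 then had an adjusted p of 0.111 and Cd36 of 0.0533. Omitting duodenum 1 or jejunum 3 also ended both calls (highest adjusted p 0.352 and 0.41). Fabp1, the liver-type fatty acid binding protein, was saturated in all jejunal samples and was not called.

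Fatty acid oxidation and ketogenesis gave 3 calls among 32 genes, all lower in the duodenum (0.274% of all genes), with a median of -0.16. Decr1, a mitochondrial reductase of fatty acid oxidation, was at 2.67, 2.45 and 2.03 in the duodenum and at 4.52, 2.96 and 4.01 in the jejunum (2.71-fold lower, -1.44 ± 0.26, adjusted p = 0.0161) and Eci1, an isomerase of the same pathway, 2.11-fold lower (-1.07 ± 0.23, adjusted p = 0.0422). Acot1, an acyl-CoA thioesterase, differed by -1.18 ± 0.26 (adjusted p = 0.0567). Ppara, the nuclear receptor that controls many of these genes, ranged from 0.02 to 0.15 in the duodenum and from -0.05 to 0.32 in the jejunum. Decr1 was lost without duodenum 1, duodenum 2 or jejunum 3 (highest adjusted p 0.344) and Eci1 without duodenum 1, duodenum 3, jejunum 1 or jejunum 3 (0.607).

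Calls among brush border enzymes went both ways: of 23, 2 were higher and 2 lower in the duodenum. The list as a whole leaned lower, with a median of -0.89. At an unadjusted p under 0.05, 14 were lower and 3 higher. On all 3 arrays 15 were lower and 3 higher, against 13.53% and 10.53% of all genes. Tmprss15, the enteropeptidase that activates trypsinogen, was at 0.39, 0.26 and -0.22 in the duodenum and at -0.31, -1.68 and -2.13 in the jejunum (3.22-fold higher, 1.69 ± 0.32, adjusted p = 0.0236). For Tmprss15, jejunum 1 lay close to duodenum 3. Akp3, an intestinal alkaline phosphatase, was 2.13-fold higher (1.09 ± 0.23, adjusted p = 0.0394). Enpep, the glutamyl aminopeptidase, was at 1.73, 1.79 and 1.02 in the duodenum and at 5.53, 2.70 and 4.12 in the jejunum (6.53-fold lower, -2.71 ± 0.47, adjusted p = 0.0113). Of its other 2 probes, 1 was lower by -1.78 and 1 was higher on the 3 arrays by 0.33, 0.17 and 0.03, and the mean of all gave -1.42 (adjusted p = 0.00957). Naaladl1, a peptidase of the same surface, was 3.39-fold lower (-1.76 ± 0.22, adjusted p = 0.000632). Si, the sucrase-isomaltase (-1.47 ± 0.49, adjusted p = 0.312), and Lct, the lactase (-2.35 ± 0.62, adjusted p = 0.124), did not pass the test. Lct was nonetheless at -1.80, -1.60 and -2.02 in the duodenum and at 1.43, 0.08 and 0.22 in the jejunum, without overlap. Sugar handling had 0 calls among 18 genes, and the carriers of amino acids and peptides 0 among 18. At an unadjusted p under 0.05, 3 sugar genes were lower and 0 higher in the duodenum. Of the amino acid and peptide carriers, 5 were lower and 2 higher. Over all genes, 4.17% were lower and 4.35% higher at that level. Slc5a1, the sodium-glucose cotransporter, differed by -0.47 ± 0.25 (adjusted p = 0.658) and Slc15a1, the peptide transporter, by -1.23 ± 0.44 (0.389). The median of the brush border list was -0.42 without the array of duodenum 2 and jejunum 1, and Akp3 (adjusted p = 0.151) and Enpep (-2.04, 0.0524) were lost. Leaving out duodenum 1 ended all 4 calls, with highest adjusted p-values over single omissions of 0.548 for Tmprss15, 0.773 for Akp3, 0.144 for Enpep and 0.0536 for Naaladl1. Duodenum 2 and jejunum 3 had the same effect for the first 3 of these, and jejunum 1 for Akp3.

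**Figure D3:**
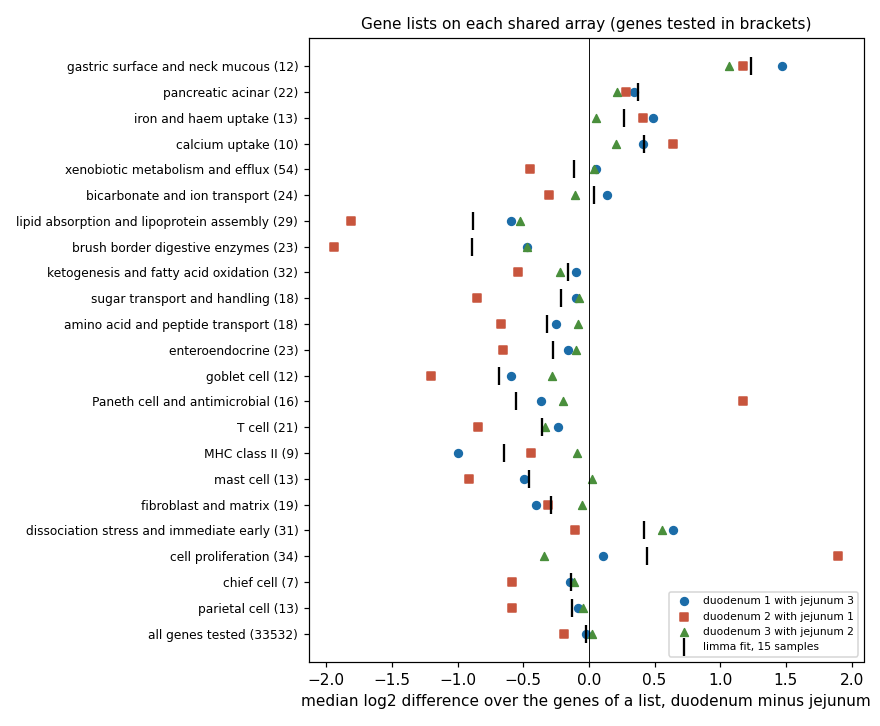
Median log2 difference, duodenum minus jejunum (horizontal axis), over the tested genes of 22 gene lists and over all genes (vertical axis), with a marker for each shared array and a bar for the fit. Gastric surface genes lie at 1.07 to 1.47 on the 3 arrays, while the square of duodenum 2 with jejunum 1 is displaced from the others for lipid, brush border, proliferation and Paneth cell genes.

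Hormone genes were lower in the duodenum where called. Of 23 enteroendocrine genes 5 were lower and 0 higher (0.274% and 0.248% of all genes), with a median of -0.27. Besides Nts, Gcg, the precursor of glucagon-like peptides, was at 0.20, -0.16 and -0.69 in the duodenum and at 2.51, 1.45 and 2.90 in the jejunum (5.59-fold lower, -2.48 ± 0.41, adjusted p = 0.00878). Gip, the incretin of upper small bowel K cells, was at 4.53, 4.51 and 4.30 in the duodenum and at 7.51, 5.83 and 6.28 in the jejunum (4.09-fold lower, -2.03 ± 0.39, adjusted p = 0.0254). Pyy, the peptide of distal L cells, was 3.22-fold lower (-1.69 ± 0.29, adjusted p = 0.00987), and Cck, which triggers gall bladder and pancreatic secretion, 3.04-fold lower (-1.61 ± 0.33, adjusted p = 0.0377). Genes shared by most hormone cells did not separate the segments. Chga ranged from 3.56 to 4.07 in the duodenum and from 3.59 to 5.38 in the jejunum, and Chgb from 5.65 to 6.35 and from 5.97 to 7.55 in the same order. Gast (-0.83 ± 0.31, adjusted p = 0.401), Ghrl (0.33 ± 0.52, 0.991) and Tph1, the serotonin-making enzyme (0.51 ± 0.24, 0.581), were not called. Without the array of duodenum 2 and jejunum 1, Nts and Pyy were called, and Gcg (adjusted p = 0.083), Gip (0.227) and Cck (0.0767) were not. Leaving out duodenum 1 or jejunum 3 ended the calls of all 4 genes other than Nts (highest adjusted p 0.373 for Gcg, 0.456 for Gip, 0.446 for Pyy, then 2.01-fold lower, and 0.659 for Cck), as did duodenum 2 or jejunum 1 for Gip and duodenum 3 or jejunum 1 for Cck.

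Goblet cell genes gave 3 calls among 12, all lower in the duodenum (0.274% of all genes), with a median of -0.69. Zg16, a lectin of the mucus, was at 5.50, 5.76 and 5.12 in the duodenum and at 7.79, 6.53 and 7.22 in the jejunum (3.42-fold lower, -1.77 ± 0.28, adjusted p = 0.00492). Tff3, the intestinal trefoil peptide, was 2.45-fold lower (-1.29 ± 0.28, adjusted p = 0.048) and Clca1, a mucus-processing protease, 2.45-fold lower (-1.29 ± 0.27, adjusted p = 0.0353), with 1 and 2 jejunal samples saturated. Muc2, the mucin of goblet cells, did not pass the test (-0.55 ± 0.25, adjusted p = 0.56). Tff3 had the opposite sign to Tff1 and Tff2. The 3 trefoil genes are neighbours on chromosome 20 of GRCr8 with no gene annotated between them, Tff3 17.8 kb from Tff2 and Tff2 16.1 kb from Tff1. Guca2a, guanylin, the peptide that stimulates salt and water secretion, was at 4.96, 5.54 and 4.83 in the duodenum and at 8.51, 6.85 and 6.81 in the jejunum, with 1 jejunal sample saturated (4.47-fold lower, -2.16 ± 0.32, adjusted p = 0.0035). Guca2b, uroguanylin, differed by -1.36 ± 0.34 (adjusted p = 0.0949) and their receptor Gucy2c by -0.42 ± 0.29 (0.796). Without the array of duodenum 2 and jejunum 1, Zg16 and Guca2a were called and Tff3 (adjusted p = 0.243) and Clca1 (0.307) were not. Tff3 was also lost without any 1 sample other than jejunum 2 (highest adjusted p 0.556) and was called in 10 of 25 alternatives, and Clca1 was lost without duodenum 1, duodenum 2, jejunum 1 or jejunum 3 (highest 0.33). Without duodenum 1 or jejunum 3, Zg16 (highest adjusted p 0.138) and Guca2a (0.265) lost their calls.

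Antimicrobial genes gave 3 calls higher and 1 lower in the duodenum among 16 (0.248% and 0.274% of all genes), with a median of -0.56. On the arrays of duodenum 1, 2 and 3 that median was -0.37, 1.17 and -0.20, and without the array of duodenum 2 and jejunum 1 it was -0.18. Reg3b, a lectin that binds bacteria, was at 6.52, 6.66 and 6.23 in the duodenum and at 4.69, 2.25 and 5.21 in the jejunum (4.81-fold, 2.27 ± 0.41, adjusted p = 0.0157). Reg3g, its relative, was at 3.98, 4.75 and 3.73 in the duodenum and at 3.64, 1.19 and 2.19 in the jejunum (3.56-fold, 1.83 ± 0.38, adjusted p = 0.0396). Dmbt1, a secreted scavenger receptor, was 3.04-fold higher (1.60 ± 0.27, adjusted p = 0.00878), and Reg4 2.42-fold lower (-1.27 ± 0.22, adjusted p = 0.0127). The jejunal spread of Reg3b and Reg3g exceeded the duodenal one, with jejunum 2 lowest, and the difference of Reg3b was 1.56 without jejunum 2 and 3.00 without jejunum 3. Leaving out duodenum 1 ended the calls of Reg3b, Reg3g, Dmbt1 and Reg4 (highest adjusted p 0.415, 0.456, 0.456 and 0.172). Jejunum 3 had the same effect for all but Reg3b, duodenum 2 and duodenum 3 for Reg3g, and the array of duodenum 2 and jejunum 1 for Reg4 (adjusted p = 0.083).

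Genes of Paneth cells at the crypt base divided the jejunal samples. Defa6, an alpha-defensin, was at 2.06, 2.43 and 1.76 in the duodenum and at 0.84, 4.44 and 5.26 in the jejunum, and Defa24 at 2.85, 3.05 and 2.33 and at 0.75, 5.18 and 5.77 in the same order. Jejunum 1 lay below and jejunum 2 and 3 above every duodenal sample. Lyz2, a lysozyme, and Olfm4, a crypt base marker, had the same arrangement. Lyz2 was at 1.47, 1.28 and 1.03 in the duodenum and at 0.53, 3.59 and 4.37 in the jejunum (-1.67 ± 0.58, adjusted p = 0.356), and Olfm4 at -0.35, 0.58 and -0.12 and at -1.12, 2.34 and 2.04 (-1.25 ± 0.54, 0.529). Without the array of duodenum 2 and jejunum 1 both were called lower in the duodenum, Lyz2 by -2.73 (adjusted p = 0.00331) and Olfm4 by -2.43 (0.000387). Proliferation genes had 0 calls among 34 with 4 at an unadjusted p under 0.05 (11.8%, against 8.53% of all genes). Their median was 1.90 on that array, against 0.11 and -0.34 on the others. Top2a, a topoisomerase of dividing cells, was at 1.59 to 2.03 in the duodenum and at 0.50, 1.85 and 2.22 in the jejunum.

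Transport of bicarbonate and other ions gave 2 calls higher and 1 lower in the duodenum among 24 genes. Over all genes the shares were 0.248% and 0.274%, and the list's median was 0.04. Slc26a3, a chloride-bicarbonate exchanger, was at 2.56, 3.81 and 2.41 in the duodenum and at 1.66, 0.27 and 0.01 in the jejunum (5.01-fold, 2.33 ± 0.33, adjusted p = 0.00192). Slc4a7, a sodium-bicarbonate cotransporter, was at 2.44, 2.23 and 2.05 in the duodenum and at 1.13, 0.84 and 0.66 in the jejunum (2.69-fold, 1.43 ± 0.19, adjusted p = 0.00131). Car4, a membrane-bound carbonic anhydrase, was 3.57-fold lower (-1.83 ± 0.35, adjusted p = 0.0217), with jejunum 1 highest, and lost its call without that array (-1.26, adjusted p = 0.15). Cftr, the chloride and bicarbonate channel, ranged from -1.73 to -0.94 in the duodenum and from -1.25 to -0.88 in the jejunum and was not called. Car2, the cytosolic carbonic anhydrase, differed by 0.98 ± 0.43 (adjusted p = 0.543) and Slc9a3, a sodium-proton exchanger, by -0.60 ± 0.23 (0.44). Slc26a3 lost its call without jejunum 3 (adjusted p = 0.227) and Slc4a7 without duodenum 1 or jejunum 3 (highest 0.149).

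Among 54 genes of xenobiotic metabolism and efflux, 5 were called higher and 0 lower in the duodenum, with a median of -0.11. Over all genes 0.248% and 0.274% were called in that order. At an unadjusted p under 0.05, 8 of the 54 were higher and 13 lower, against 4.35% and 4.17% of all genes. Besides Gsta1, Adh7, the alcohol dehydrogenase of the upper digestive tract, was at 0.57, 1.21 and 0.11 in the duodenum and at -2.52, -2.09 and -3.32 in the jejunum (10.1-fold, 3.33 ± 0.34, adjusted p = 4.41e-05). Of the jejunal samples, 2 were well above background for Adh7. Sult1c2, a sulfotransferase, was at 2.61, 2.84 and 1.99 in the duodenum and at -0.06, -0.29 and -0.20 in the jejunum (6.40-fold, 2.68 ± 0.19, adjusted p = 8.2e-07). Its relative Sult1c2a, which was not on the list, was 5.35-fold higher (2.42 ± 0.24, adjusted p = 3.95e-05), and cross-hybridisation between these probes was not tested. Ugt2b7, a glucuronosyltransferase, was at 4.87, 4.64 and 4.44 in the duodenum and at 3.52, 2.80 and 2.16 in the jejunum (3.65-fold, 1.87 ± 0.28, adjusted p = 0.00375). Akr1c15, an aldo-keto reductase, was 3.06-fold higher (1.62 ± 0.30, adjusted p = 0.0179). Not every relative followed: Gsta2, a close relative of Gsta1, overlapped between segments, with a difference of -0.55 ± 0.41 (adjusted p = 0.837). Cyp1a1, the inducible cytochrome, was at -2.33, -1.53 and -2.36 in the duodenum and at 2.81, -0.89 and -0.82 in the jejunum, where jejunum 1 stood far above the others (-2.28 ± 0.73, adjusted p = 0.279). Ugt2b7 and Akr1c15 lost their calls without duodenum 1 or jejunum 3 (highest adjusted p 0.328 and 0.415), while Gsta1, Adh7, Sult1c2 and Sult1c2a were called without any 1 sample. Adh7 (2.80, adjusted p = 0.194) and Sult1c2a (2.56, 0.0648) did lose theirs without the array of duodenum 1 and jejunum 3, and the difference of Ugt2b7 was 0.86. It was 1.25 without jejunum 3.

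Among the other genes with the largest differences, Cxcl1, a chemokine that draws neutrophils, was at 0.53, 1.25 and 0.00 in the duodenum and at -0.56, -2.55 and -2.38 in the jejunum (5.89-fold, 2.56 ± 0.35, adjusted p = 0.00131). Edn1, the peptide endothelin, was at 2.61, 3.07 and 2.34 in the duodenum and at 1.73, -0.58 and -0.19 in the jejunum (5.60-fold, 2.49 ± 0.38, adjusted p = 0.00455). In both genes the duodenal samples were closer together than the jejunal ones, and jejunum 1 lay nearest to them. Cxcl1 and the immediate early factor Egr2 (4.24-fold, 2.09 ± 0.31, adjusted p = 0.00295) were the 2 calls in a list of 31 genes that respond to tissue dissociation and stress, whose median was 0.42, and 13 of the 31 were higher in the duodenum on all arrays, as were 3531 of all 33532 genes (10.53%). Without the array of duodenum 2 and jejunum 1, 5 of the 31 were called, among them Hspa1a, a heat shock protein (1.74, adjusted p = 0.0308). Mean levels of that list ranged from 2.08 to 2.33 in the duodenum and from 1.44 to 2.17 in the jejunum, and the part of handling in these differences was not tested. Single omissions that ended calls were jejunum 3 for Cxcl1 (adjusted p = 0.13), duodenum 1 or jejunum 3 for Edn1 (highest 0.227) and duodenum 1 for Egr2 (0.108).

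Of the largest lower differences not yet described, Csta, the cysteine protease inhibitor stefin A, was at 0.42, 0.45 and -0.10 in the duodenum and at 5.14, 1.91 and 2.82 in the jejunum (7.54-fold lower, -2.91 ± 0.46, adjusted p = 0.00493). Stfa3, another stefin, was at -0.72, 0.57 and -1.25 in the duodenum and at 4.04, 1.27 and 1.65 in the jejunum (6.54-fold lower, -2.71 ± 0.48, adjusted p = 0.0132). Jejunum 1 was the highest sample for both stefins. Oas1a, an interferon-induced antiviral synthetase, was at -1.63, -1.34 and -1.86 in the duodenum and at 0.74, 0.48 and 1.19 in the jejunum (5.60-fold lower, -2.49 ± 0.26, adjusted p = 5.04e-05). Ubd, a ubiquitin-like modifier induced by cytokines, was 5.89-fold lower (-2.56 ± 0.37, adjusted p = 0.00278), and Cmahp, named for the hydroxylase that makes a sialic acid, 7.42-fold lower (-2.89 ± 0.33, adjusted p = 0.000153). Oas1a separated the segments with little spread, and Cmahp ranged more widely in the jejunum. Csta and Stfa3 lost their calls without duodenum 1 or jejunum 3 (highest adjusted p 0.196 and 0.456), and Ubd without duodenum 1 (0.0924). Oas1a (-2.32, adjusted p = 0.176) and Cmahp (-2.04, 0.239) lost theirs without the array of duodenum 1 and jejunum 3. Csta differed by -2.21 and Ubd by -1.87 without the array of duodenum 2 and jejunum 1, both still called. With all probes of a gene averaged, Csta was not called (-1.59, adjusted p = 0.0808).

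Immune and stromal lists gave few calls, as short lists would when 0.522% of all genes are called. T cell genes had 0 calls among 21 with a median of -0.36, MHC class II genes 0 among 9 with a median of -0.65, and mast cell genes 0 among 13 with a median of -0.46. At an unadjusted p under 0.05 these lists held 8, 4 and 5 genes, all lower in the duodenum, against 1399 lower among all 33532 genes (4.17%). Mcpt1, a mast cell protease, was called lower when the array of duodenum 2 and jejunum 1 was left out (-2.94, adjusted p = 0.00678). It was at -2.54, -3.11 and -2.98 in the duodenum and at -4.47, -1.30 and 1.64 in the jejunum, where jejunum 1 lay below every duodenal sample. Gzma, a granzyme of intraepithelial lymphocytes, was at 1.21, 1.46 and 0.71 in the duodenum and at 3.95, 1.93 and 2.17 in the jejunum (-1.49 ± 0.38, adjusted p = 0.11). C1qb, a complement chain of macrophages (2.60-fold lower, adjusted p = 0.0261), and Cd38, a surface enzyme of plasma and other cells (3.26-fold higher, adjusted p = 0.0327), were the single calls of their lists. Both were lost without the array of duodenum 2 and jejunum 1 (adjusted p = 0.203 and 0.113), and Cd38 also with its probes averaged (0.07). C1qb differed by -0.76 without the array of duodenum 1 and jejunum 3. Fibroblast, endothelial, smooth muscle, nerve and red blood cell lists had 0 calls each.

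The same probes were read along the tract, as a description, since stomach, ileum and colon were scanned on other days and with other versions or settings of the scanner software for most samples, so segment and scan cannot be told apart there. Means of 3 samples are given in the order stomach, duodenum, jejunum, ileum, colon. Adh7 averaged 2.96, 0.63, -2.64, -5.16 and -0.74, and Tff2 averaged 5.10, 4.42, 0.18, -2.48 and -3.59. The ileal mean of Adh7 lay below the lowest signals counted as well above background there (-1.77, -4.18 and -3.91), so its last step has no measured size. Gkn1, Gkn2 and Tff1 were saturated in all 3 stomach samples and declined through duodenum, jejunum and ileum. These genes thus ran downward from the stomach to the ileum.

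Pdx1 and Slc40a1 had their highest mean in the duodenum. Pdx1 averaged -1.37, 2.90, 1.2, -1.93 and -2.79, and Slc40a1 averaged -4.23, 0.13, -1.75, -3.86 and -2.14. Cybrd1 had means of -1.62, 1.21, -1.41, -1.61 and 1.56, the highest in the colon. Of the lower genes, Fabp2 (0.61, 4.11, 7.27, 5.50 and 2.56), Dnase1 (-1.44, 1.59, 6.36, 4.07 and -1.61) and Gip (0.01, 4.45, 6.54, 2.71 and -2.01) had their highest mean in the jejunum. Nts had similar means in jejunum and ileum (2.81 and 2.83). Gcg and Pyy went on upward to the colon, at 3.44 and 4.98. Fabp6, the ileal bile acid binding protein, was 3.10-fold lower in the duodenum than in the jejunum (-1.63 ± 0.33, adjusted p = 0.0354), at -2.73, -2.83 and -2.85 in the duodenum and -2.33, -1.03 and -0.39 in the jejunum, and was saturated in all 3 ileal samples. It was well above background in 2 duodenal and 2 jejunal samples, and its call was lost without duodenum 1, duodenum 3 or jejunum 3 (highest adjusted p 0.625, at -0.99).

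**Figure D4:**
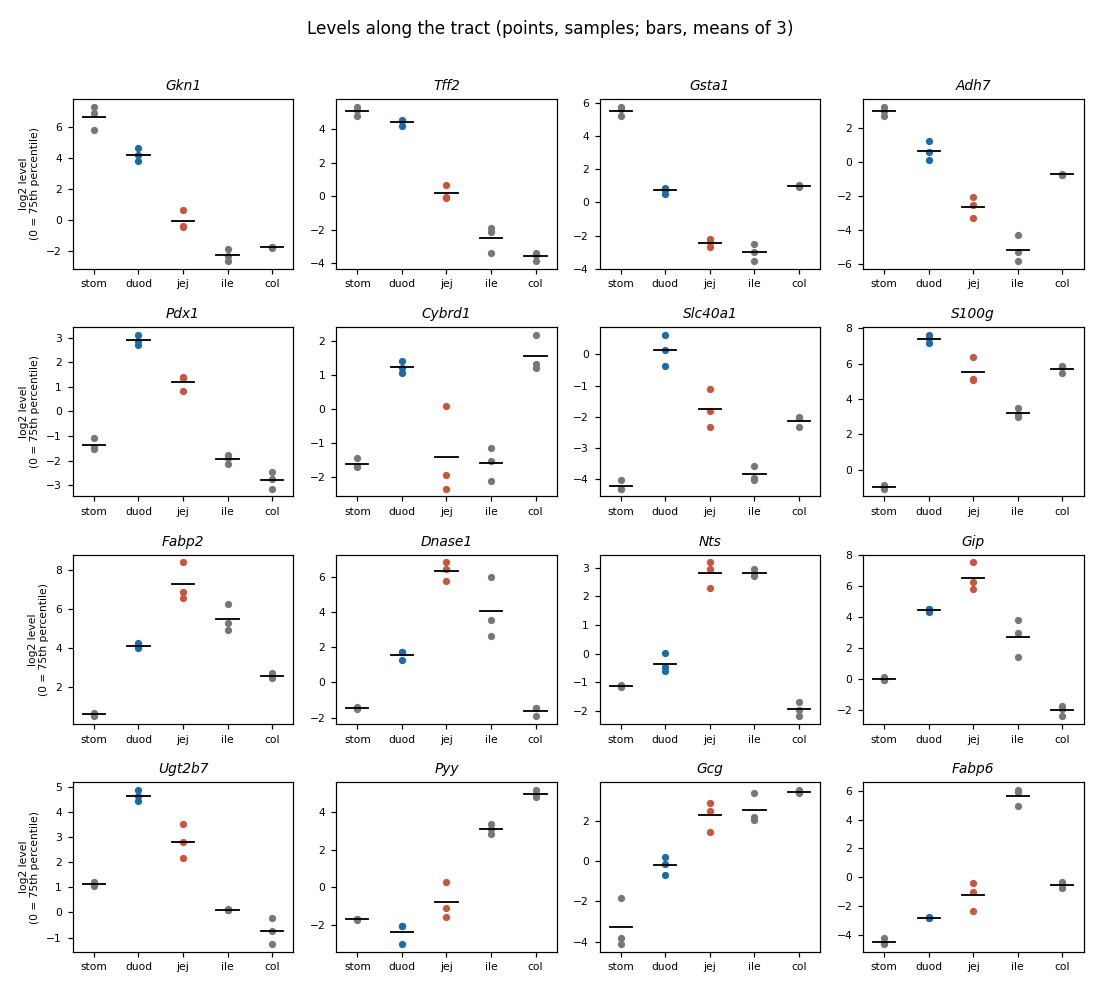
Log2 levels (vertical axes, 0 at the 75th percentile of a sample) of 16 genes in the 3 samples of stomach, duodenum, jejunum, ileum and colon, from left to right, with bars at the means. The points show Tff2 and Adh7 declining from stomach to ileum, Pdx1 and Slc40a1 highest in the duodenum, and Fabp2, Dnase1 and Gip highest in the jejunum.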

How the data were processed

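Both channels of Agilent whole-genome rat arrays were read in the 6 samples, and each sample was represented by the channel of the dye its label gave. Per the file headers, the deposited processed signal is an intensity, background-subtracted and dye-normalised by the scanner software (version 9.5.1.1 for these arrays). The deposited value table held the same intensities, within 0.02 on the log2 scale, for 100.0% of spots. Amplification and labelling used a linear amplification kit, per the labels' protocols. No counts exist for arrays, and their number limits the precision.

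From the log2 of each processed signal the 75th percentile of its sample was subtracted, without the spots that the scanner software had flagged (non-uniform or outlying). Testing was limited to probes above background by the software's criterion in all samples of 1 segment or more (38846), and each gene was represented by its brightest probe. Names came from the files, updated through the RefSeq gene table (GRCr8): of 41012 probes, 10990 matched by accession, 5616 by symbol and 3759 by an older symbol, and 20647 kept the file's name. Models were fitted in limma 3.58.1 (R 4.3.3) on all 15 samples, with segment and dye fixed, array as a random block (9 residual degrees of freedom, correlation 0.36) and an intensity trend, and two-sided p-values were adjusted over all genes. The dye term gave 0 calls (638 at an unadjusted p under 0.05).

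Genes named are the 6 markers, the 15 called genes with the largest difference in each direction that have a current symbol and 1 sign on all arrays, and up to 4 called members of each list in each direction, with other members given as values. Some genes that this rule names are not reported here, although the counts include them. The 41 lists and the markers were chosen with earlier results of these data known. Lists are described by counts and medians, with no set test. A fold against a segment where no sample was well above background is a bound at the lowest signal counted as well above background. Samples were paired by array. Deviations from the segment mean correlated at 0.54, 0.49 and 0.55 between samples on the same array, which share spots, scan and dye normalisation. Between samples with the same replicate number they correlated at -0.27, -0.42 and -0.09. Such deviations cancel out within a segment, which pushes the other pairs negative, so whether numbers pair the isolations cannot be told. Alternatives covered scaling, background, filters, blocks, probes and left-out samples.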

Additional observations from a re-analysis of the deposited data

How the results depend on the processing

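All 175 called genes kept their direction in each of the 25 alternatives in which they were measured, but the counts depended on the fit. The fit of the 6 samples alone called 37 genes higher and 29 lower in the duodenum, and the fit without an array block 31 and 14. With array as a fixed block, 21 and 20 were called without a dye term, and 156 lower with it, on 1 residual degree of freedom. Without the dye term 183 genes were called lower, with scan day as the block 143, and without the intensity trend 55. The replicate block, on numbers whose link between samples is not known, gave 42 higher and 31 lower. Leaving out a single sample gave 17 to 536 higher (jejunum 3, jejunum 2) and 10 to 637 lower (duodenum 1, jejunum 2). In detail, 18 and 10 were called without duodenum 1, 17 and 11 without jejunum 3, 54 and 41 without duodenum 2, and 188 and 234 without duodenum 3. Leaving out the array of duodenum 1 and jejunum 3 left 7 higher and 3 lower, that of duodenum 2 and jejunum 1 left 46 lower, and without duodenum 3 and jejunum 2 there were 1075 and 775. Counts under the remaining scalings, filters, the value table and without jejunum 1 stayed within 1.5 times of those reported, although normexp background correction shared 118 of the 175 calls. Only the array of duodenum 1 and jejunum 3 carried the duodenum in Cy3. Fits without it, or without 1 of its samples, changed the balance of segment and dye as well as the number of samples. The cause of these shifts was not tested. Of 63 called genes examined by name, 16 were called without each single sample and 7 in all 25 alternatives, among them Gkn1, Tff2, Gkn2, Gsta1, Sult1c2 and Nts. Among 31 named genes with further probes, 37 of 42 other probes had the same direction. Duodenum 2 and jejunum 1 had 64.6% and 52.2% of probes well above background, which limits dim genes.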

Other observations

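The called genes below lie outside the lists and were chosen after their values were seen, so they stand for no group. The complement genes C3 and Cfb were higher in the duodenum by 1.54 (adjusted p = 0.0159) and 1.41 (0.0216), and the chemokines Cxcl10 and Ccl20 by 1.85 (0.00493) and 1.77 (0.0047). Hhex, a homeobox factor of foregut derivatives, differed by 1.45 (adjusted p = 0.00767) and Nfe2l2, which controls antioxidant genes, by 0.99 (0.0207). Adh1c, another alcohol dehydrogenase, was higher by 2.29 (adjusted p = 3.7e-05). It lies 34.1 kb from Adh7 on chromosome 2 of GRCr8.

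Lower genes chosen in the same way included Ramp1, a receptor-modifying protein, at -1.82 (adjusted p = 8.8e-05), Trpm6, a magnesium channel, at -1.37 (0.0216), the water channel Aqp8 at -1.50 (0.0361) and Retsat, a retinol saturase, at -1.33 (0.0289). The interferon-inducible Ifi27l2b was at -1.77 (adjusted p = 0.0219).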
